A study of Capra hircus with 11 samples.

Results

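PIGR-high barcodes are goat mammary epithelial cells with at least 5 unique molecules (UMIs) of PIGR, the polymeric immunoglobulin receptor. They were chosen by their measured PIGR count and taken from GMECs, the naturally derived mammary epithelial cells of the series, among cell barcodes with at least 500 detected genes. Of 5190 such barcodes, 695 were PIGR-high (13.4%, exact Clopper-Pearson 95% interval 12.5 to 14.3), and the 5 tables of the series hold 41854 barcodes in all. They were set against the 2049 GMECs barcodes with at least 500 genes and 0 PIGR UMIs, called PIGR-0 here, at matched total UMIs.

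PIGR sits on the basolateral face of glandular and mucosal epithelium, binds dimeric IgA and pentameric IgM that carry the J chain, and takes them through the cell to the lumen. There its outer part is cut off and leaves with the antibody as secretory component. In the mammary gland this route brings IgA into colostrum and milk.

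Single-cell RNA was measured in Capra hircus by the 10x Genomics droplet method with the Single Cell 3′ version 2 kit. GMECs, with no induction, are described by the labels only as naturally derived, with 2 samples that share 1 sample-sheet number and differ in lane. CiMECs is 1 sample of induced cells from after day 8, and BFRTV0d, BFRTV4d and BFRTV8d hold 3, 3 and 2 samples of goat ear fibroblasts after 0, 4 and 8 days in BFRTV induction medium. The labels give no age, breed or number of animals. Each group came as a single table whose barcodes are not tied to a sample, so it counts as 1 library, with no replicate and no test. Intervals cover counting error only and differences compare sets of barcodes in 1 library.

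PIGR counts ran without a gap through the cut. Among the 5190 barcodes, 2049 (39.5%) had 0 PIGR UMIs, 2446 (47.1%) had 1 to 4 and 695 had 5 or more. Within the PIGR-high barcodes the count ran from 5 to 45 UMIs with a median of 7, and they held 53.6% of all PIGR UMIs. Most of them, 526, had 5 to 9 UMIs, 155 had 10 to 19 and 14 had 20 or more. Just inside the cut, the 180 barcodes with 5 UMIs had a median PIGR level of 221 CPM (counts per 1000000 UMIs), and just outside it the 290 with 4 UMIs had a median of 190 CPM. The members are thus the upper end of a range, and no separate group of barcodes stood at the cut.

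**Figure D1:**
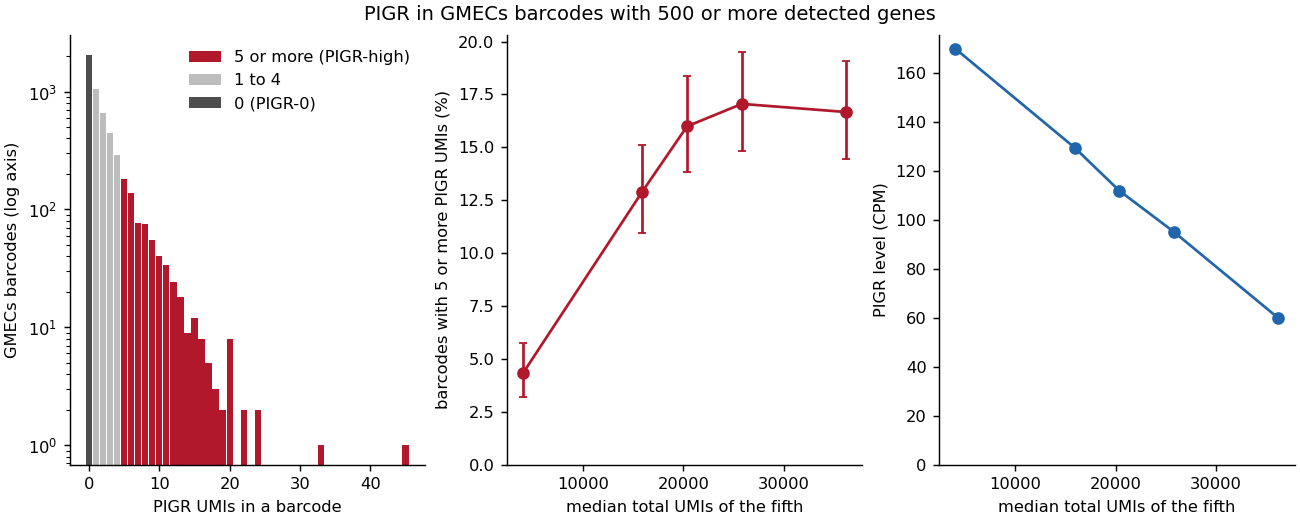
Left, the number of GMECs barcodes (log axis) at each PIGR UMI count. Centre and right, the share of barcodes with 5 or more PIGR UMIs (95% exact interval) and the PIGR level in CPM, both against the median total UMIs of 5 depth groups of 1038 barcodes. The share climbed from 4.34% in the shallowest group to 16.7% in the deepest, while the level fell from 170 to 59.9 CPM.

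The cut on a UMI number depends on depth. From the shallowest to the deepest of 5 equal groups of barcodes, the share with 5 or more PIGR UMIs was 4.34%, 12.9%, 16.0%, 17.1% and 16.7%, and the PIGR level was 170, 130, 112, 95.1 and 59.9 CPM. PIGR-high barcodes had a median of 23136 total UMIs and 3624 genes, against 18225 UMIs and 3097 genes in PIGR-0 barcodes. Pairing each PIGR-high barcode with the PIGR-0 barcode nearest in total UMIs removed that gap. Of the members, 694 were paired within 5% and 1 was not. The median total was 23089.5 UMIs in paired PIGR-high barcodes and 23085.5 UMIs in paired PIGR-0 barcodes, with 3623.5 and 3504 detected genes. Ribosomal protein genes took 34.5% of UMIs in PIGR-high and 34.9% in PIGR-0 barcodes, and 59 barcodes of each side had over 2 times the median total UMIs.

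Among the 5 tables, PIGR was found almost wholly in GMECs. After each barcode was thinned to 3000 UMIs, at least 1 PIGR UMI was found in 23.3% of 4752 GMECs and 0.237% of 10144 BFRTV8d barcodes. Without thinning the shares were 60.5% and 0.650%. Ribosomal protein genes took 35.0% of GMECs UMIs and are not listed in BFRTV8d, so fewer of the 3000 UMIs came from other genes in GMECs. After thinning, 438 GMECs and 8 BFRTV8d barcodes were too shallow and were left out. The tables of CiMECs, BFRTV0d and BFRTV4d do not list PIGR. Those tables list genes found in at least 6 barcodes (CiMECs) or 11 barcodes (BFRTV), so PIGR in fewer barcodes would go unseen. In the 451 GMECs barcodes under 500 genes, with a median of 668 UMIs, 16 held 1 PIGR UMI each (3.55%, 51.3 CPM), and no cell type that should lack PIGR was at hand to measure free RNA.

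The data back an epithelial label for these barcodes and not a milk-secreting one. KRT8 and KRT18, keratins of simple epithelium, and KRT19, a luminal keratin, were found in all or nearly all PIGR-high barcodes. The GMECs table does not list the caseins CSN1S1, CSN2 and CSN3, the whey proteins LALBA and PAEP, the milk fat globule protein BTN1A1, GLYCAM1 or the progenitor marker KIT. LTF, the iron-binding milk protein lactoferrin, had 8 UMIs in PIGR-high and 0 UMIs in PIGR-0 barcodes, and ELF5, the factor of alveolar cells, had 0 and 2 UMIs. XDH, needed for fat globule release, had 54 and 24 UMIs. Of the other markers of secretory luminal cells, EHF, an epithelial ETS factor, was at 96.0 CPM in PIGR-high and 72.9 CPM in PIGR-0 barcodes, ALDH1A3 at 185 and 153 CPM, and MFGE8, a fat globule protein, at 13.8 and 13.1 CPM. A wider list of the luminal secretory lineage had 10 of 13 measured genes above 1-fold, 3 of them above 1.5-fold and none by 2-fold, with a median log2 fold of 0.35. Over all genes with at least 10 CPM on either side, 56.4% lay above 1-fold and 3.3% were higher by 1.5-fold, with a median of 0.04. CD14, a receptor for bacterial lipopolysaccharide, was at 52.1 and 30.4 CPM, a fold of 1.71 (1.54 to 1.91), and the others past 1.5-fold were KRT19 and the claudin CLDN3. A list of the hormone-sensing luminal lineage, which also holds KRT8 and KRT18, had 2 of 5 measured genes above 1-fold. Its median log2 fold was -0.04, and the 2 genes were GATA3 at 1.33 and AREG at 1.16. The cells are therefore called PIGR-high barcodes and given no cell type name.

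Defining markers of immune cells, fibroblasts and endothelium were mostly unlisted or near 0, and 4 genes of the mesenchymal and pericyte lists were not. The table does not list PTPRC, CD3E or TYROBP of immune cells, COL1A1, COL1A2, COL3A1, DCN or LUM of fibroblasts, or PECAM1 and CDH5 of endothelium. JCHAIN, the joining chain that plasma cells put into dimeric IgA, had 64 UMIs in PIGR-high and 42 UMIs in PIGR-0 barcodes, and the B-cell gene CD79A had 5 and 5. All 22 immune markers together, of which 5 are listed, summed to 6.37 CPM in PIGR-high and 4.95 CPM in PIGR-0 barcodes. Of 25 fibroblast and mesenchymal genes, 12 are listed and summed to 1734 CPM in PIGR-high and 1614 CPM in PIGR-0 barcodes. THY1, a surface protein of fibroblasts and of some basal epithelial cells, was found in 37.8% of PIGR-high and 19.3% of PIGR-0 barcodes, at 24.2 and 11.3 CPM and a fold of 2.15 (1.81 to 2.56). S100A4 was at 1033 and 723 CPM, a fold of 1.43, and VIM, the mesenchymal intermediate filament, at 671 and 876 CPM, a fold of 0.766. NOTCH3, a receptor of pericytes, was at 12.8 and 6.79 CPM, a fold of 1.88, and is the only one of 12 endothelial and pericyte genes to reach 10 CPM. It did so only in PIGR-high barcodes, so the filter fixed the direction of its fold. Of markers of basal, squamous and myoepithelial cells, KRT5 was at 735 CPM, CRNN at 83.7 CPM and MYLK at 19.3 CPM in PIGR-high barcodes. In PIGR-0 barcodes these genes were at 351, 78.2 and 8.00 CPM. MYLK reached 10 CPM only in PIGR-high barcodes, so the filter fixed its direction. Of the other myoepithelial markers, ACTA2 was at 9.76 CPM in PIGR-high and 10.1 CPM in PIGR-0 barcodes. CNN1 had 14 UMIs in PIGR-high and 41 UMIs in PIGR-0 barcodes, and OXTR had 76 and 35 UMIs. The basal marker KRT14 was at 7.12 CPM in PIGR-high and 14.9 CPM in PIGR-0 barcodes. The part of other cell types in the contrast was not tested.

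Most genes differed little between the 2 sides. Of 5948 genes with at least 10 CPM on either side, PIGR left out, 95.1% lay within 1.5-fold and the median log2 fold was 0.04. At 2-fold or more, 40 genes were higher in PIGR-high barcodes, which is 0.672% of genes compared, and 8 were lower, 0.134%. At 1.5-fold the numbers were 196 (3.3%) and 94 (1.58%). For 21 of the 40 and 4 of the 8 the whole counting interval lay beyond 2-fold. A gene that reached 10 CPM on 1 side only had to differ, and this holds for 15 of the 40, which were under 10 CPM in PIGR-0 barcodes, and for 4 of the 8, which were under it in PIGR-high barcodes. Over all genes compared, 56.4% lay above 1-fold and 43.6% below. A fold here is the CPM of PIGR-high over PIGR-0 barcodes.

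**Figure D2:**
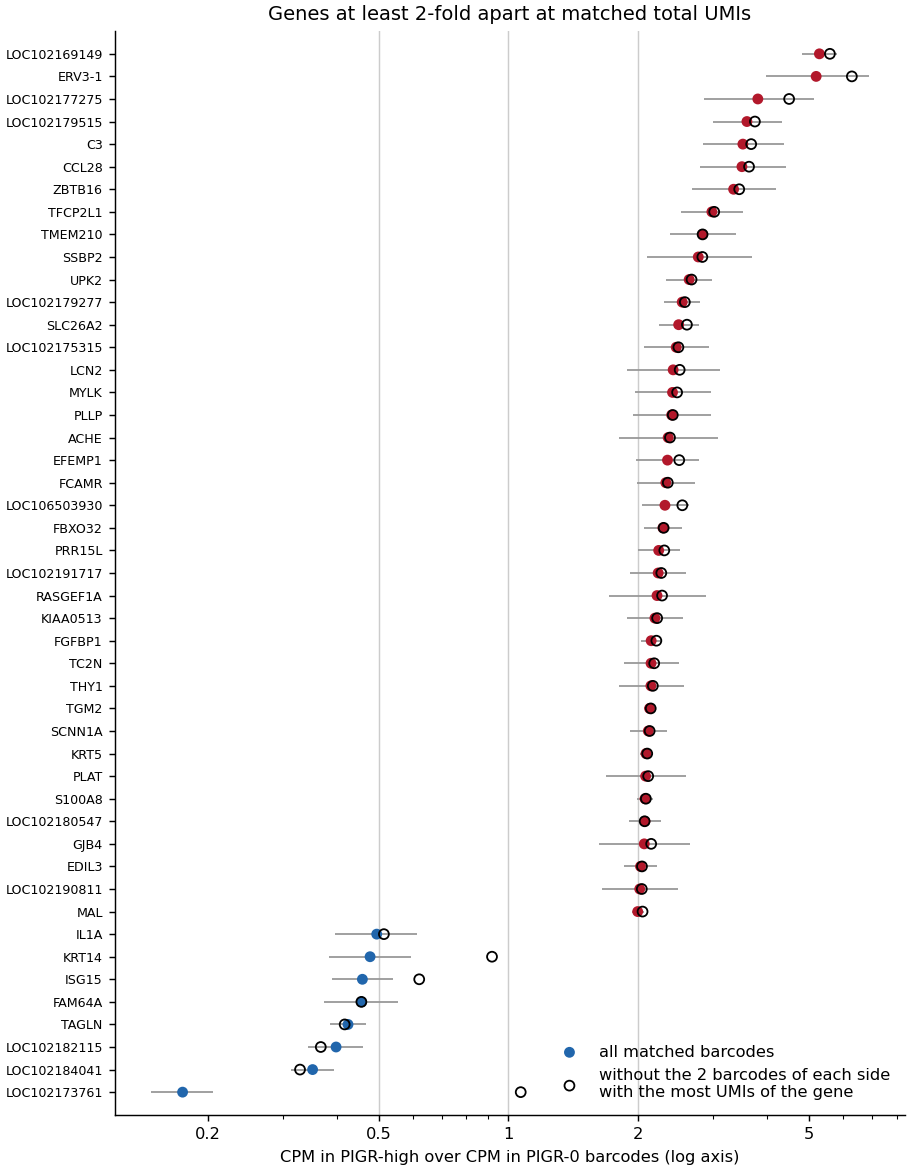
Shown are 47 of the 48 genes at least 2-fold apart between 694 PIGR-high and 694 PIGR-0 barcodes, as fold on a log axis with its 95% counting interval (red above 1, blue below 1). Open circles leave out the 2 barcodes of each side with the most UMIs of that gene; KRT14, ISG15 and LOC102173761 then lie at 0.917, 0.621 and 1.07, while LOC102169149 and ERV3-1 stay above 5.

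CCL28 and FCAMR, which follow with C3 and LCN2, belong to none of the lists and were picked after their values were seen. CCL28, a mucosal chemokine that draws IgA-producing plasma cells, was found in 30.4% of PIGR-high and 12.1% of PIGR-0 barcodes, or 5.79% and 1.59% after thinning to 3000 UMIs. Its level was 19.9 CPM in PIGR-high and 5.70 CPM in PIGR-0 barcodes, a fold of 3.50 (95% interval 2.79 to 4.42). No barcode of either side had more than 6 UMIs, so the difference is one of many barcodes with 1 or a few molecules. C3, the central complement component, was found in 33.4% of PIGR-high and 11.4% of PIGR-0 barcodes, with 22.0 and 6.27 CPM and a fold of 3.51 (2.83 to 4.39). LCN2, an antibacterial protein that binds iron carriers, was found in 20.5% and 9.80% of barcodes, with 13.1 and 5.41 CPM and a fold of 2.42 (1.89 to 3.11). All 3 were low genes whose median barcode on both sides held 0 UMIs. Each reached 10 CPM only in PIGR-high barcodes, so the filter fixed the direction of its fold.

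FCAMR, a receptor for the Fc part of IgA and IgM, was found in 44.2% of PIGR-high and 23.6% of PIGR-0 barcodes, or 7.96% and 4.63% after thinning. It had 31.9 and 13.7 CPM, a fold of 2.33 (1.99 to 2.72). FCAMR stands next to PIGR in the gene order of the RefSeq goat assembly ARS1.2, and whether the counting let reads pass between the neighbours could not be checked from the tables.

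S100A8, a subunit of calprotectin, an antimicrobial protein of neutrophils and stressed epithelium, had a median of 2 UMIs and a highest of 577 UMIs in PIGR-high barcodes, against a median of 0 and a highest of 265 in PIGR-0 barcodes. Its level was 408 and 196 CPM, a fold of 2.08 (2.00 to 2.17), and the 10 barcodes with most held 30.3% of its UMIs on the PIGR-high side and 37.1% on the PIGR-0 side. S100A9, the partner subunit, was found in 79.8% of PIGR-high and 73.9% of PIGR-0 barcodes, with 16.8% and 17.5% of its UMIs in the 10 richest, and was at 189 and 129 CPM, a fold of 1.47. LOC102169149, an unnamed gene between S100A9 and S100A8 in the RefSeq order, had the highest fold of all, 5.29 (4.82 to 5.82), with 162 CPM in PIGR-high and 30.6 CPM in PIGR-0 barcodes. It was found in 46.4% and 18.2% of barcodes, and its 10 richest barcodes held 30.4% of its UMIs in PIGR-high and 42.2% in PIGR-0.

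**Figure D3:**
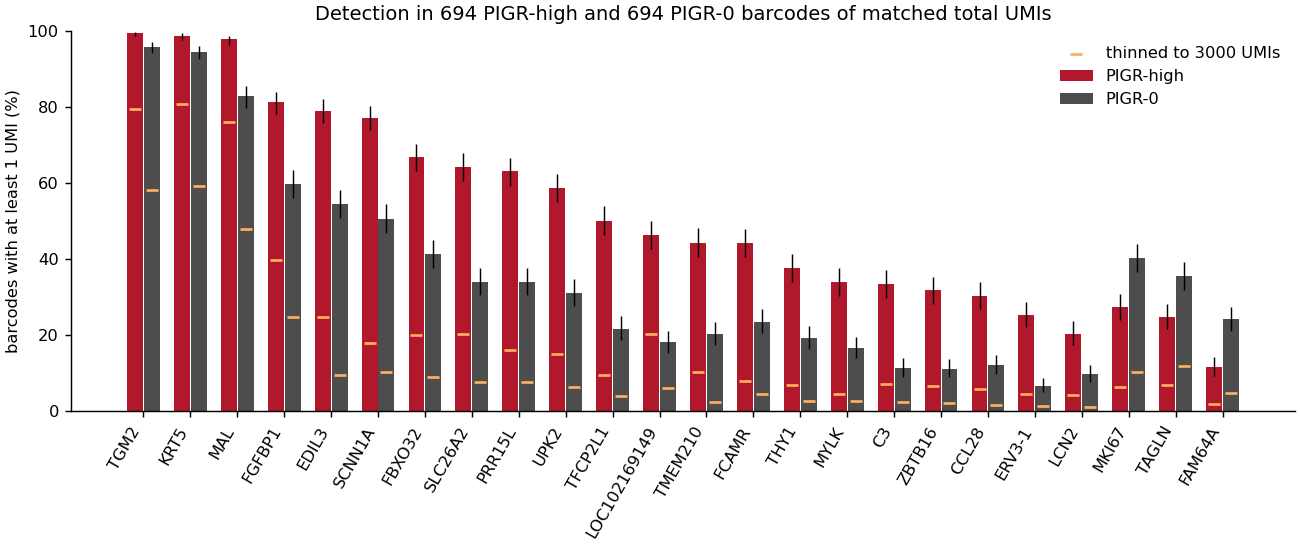
Share of barcodes with at least 1 UMI of 24 genes in 694 PIGR-high (red) and 694 PIGR-0 (grey) barcodes, with exact 95% intervals; orange ticks give the share after thinning to 3000 UMIs. C3, CCL28 and ZBTB16 were found in 30.4% to 33.4% of PIGR-high and 11.2% to 12.1% of PIGR-0 barcodes, and MKI67, TAGLN and FAM64A in fewer PIGR-high barcodes.

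Of the genes with the highest folds, TGM2, KRT5 and MAL were abundant enough to be found in most barcodes of both sides. TGM2, the tissue transglutaminase that cross-links proteins, had a median of 17 UMIs in PIGR-high barcodes, with the middle 50% of barcodes between 10 and 27, and a median of 7 UMIs in PIGR-0 barcodes, with the middle 50% between 4 and 12. The 2 ranges overlap, and the level was 798 and 374 CPM, a fold of 2.13 (2.07 to 2.20). KRT5, a keratin of basal and stratified epithelium, had a median of 16 UMIs in PIGR-high and 6 UMIs in PIGR-0 barcodes, with 735 and 351 CPM and a fold of 2.09 (2.03 to 2.16). MAL, a proteolipid of apical membrane transport, had medians of 12 and 5 UMIs, with 611 and 305 CPM and a fold of 2.00 (1.94 to 2.07).

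FGFBP1, a secreted carrier that frees fibroblast growth factors, had medians of 4 and 1 UMIs in PIGR-high and PIGR-0 barcodes, with 233 and 108 CPM and a fold of 2.15 (2.04 to 2.27). UPK2, a uroplakin of urothelial membranes, was found in 58.8% of PIGR-high and 31.3% of PIGR-0 barcodes, or 15.2% and 6.37% after thinning, with 54.3 and 20.6 CPM and a fold of 2.64 (2.33 to 2.98). TFCP2L1, a transcription factor of ductal epithelium in mouse kidney and salivary gland, was found in 50.1% and 21.8% of barcodes, with 32.7 and 10.99 CPM and a fold of 2.98 (2.52 to 3.52).

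SCNN1A, a subunit of the epithelial sodium channel, was at 69.2 CPM in PIGR-high and 32.7 CPM in PIGR-0 barcodes, a fold of 2.12 (1.91 to 2.34). SLC26A2, a sulfate transporter, was at 70.8 and 28.4 CPM, a fold of 2.49 (2.24 to 2.77). A list of solute and water transport genes, which does not hold SLC26A2, had 5 measured genes, all above 1-fold, and 1 of them, SCNN1A, by 2-fold. Over all genes compared, 56.4% lay above 1-fold and 0.672% were higher by 2-fold. SLC39A8, a zinc and manganese importer, was at 1.80.

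Among genes with a symbol other than LOC and at least 50 CPM, the next in fold were FBXO32, a ubiquitin ligase subunit, at 2.29; PRR15L at 2.24; EDIL3, a secreted integrin ligand, at 2.03; ITGB6, an epithelial integrin subunit that frees latent TGF-beta, at 1.98; LTA4H, which makes leukotriene B4, at 1.86; ADIRF at 1.86; and PDXK, the vitamin B6 kinase, at 1.86. The unnamed LOC102179277, at 87.8 CPM in PIGR-high and 34.6 CPM in PIGR-0 barcodes, was at 2.54, and LOC102180547, at 97.3 and 46.8 CPM, was at 2.08. Among genes under 50 CPM, outside the naming rule and picked after their values were seen, ERV3-1 stood at 5.20, ZBTB16, a zinc finger factor, at 3.34 and TMEM210 at 2.83. MYLK, myosin light chain kinase and a planned myoepithelial marker, stood at 2.41. ERV3-1, ZBTB16 and MYLK reached 10 CPM only in PIGR-high barcodes, so the filter fixed their direction. The contractile list, which holds MYLK and TAGLN, had 2 of 6 measured genes above 1-fold, beside 56.4% of all genes. Its median log2 fold was -0.06.

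Keratins did not move as 1 group. KRT19 had a median of 147.5 UMIs in PIGR-high and 80 UMIs in PIGR-0 barcodes, with 7259 and 4526 CPM and a fold of 1.60 (1.59 to 1.62). KRT18 had medians of 53 and 73 UMIs, with 3909 and 5326 CPM and a fold of 0.734 (0.727 to 0.741). KRT8, the partner of KRT18 in filaments, had medians of 94 and 88.5 UMIs and a fold of 0.973, which was above 1 in 2 of 20 other settings. KRT14, the basal partner of KRT5, was found in 8.79% of PIGR-high and 8.21% of PIGR-0 barcodes, and its fold of 0.477 rests on few barcodes, since it was 0.917 (0.695 to 1.21) without the 2 richest of each side. TP63, the basal cell factor, is not listed.

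Of genes at least 2-fold lower in PIGR-high barcodes, TAGLN, an actin-binding protein of contractile cells, was found in 24.9% of PIGR-high and 35.6% of PIGR-0 barcodes, or 6.95% and 12.01% after thinning, with 34.2 and 80.6 CPM and a fold of 0.424 (0.385 to 0.467). Its 10 richest barcodes held 35.9% and 29.6% of its UMIs. FAM64A, a gene of mitosis, was found in 11.7% and 24.2% of barcodes, a fold of 0.456. ISG15, the interferon-induced ubiquitin-like protein, was at 0.458, or 0.621 without the 2 richest barcodes of each side, and IL1A, an alarmin cytokine, at 0.495. LOC102173761 was at 0.175, but a single PIGR-0 barcode held 835 of its 986 PIGR-0 UMIs. LOC102184041 was at 0.351 and LOC102182115 at 0.398.

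Below 2-fold, the lowest among genes with at least 50 CPM were PRC1, a spindle midzone protein, at 0.549, ESM1, the secreted proteoglycan endocan, at 0.564 and CCL20, a chemokine for CCR6-bearing cells, at 0.571. CCL20 was at 1.45 in the upper 231 pairs by total UMIs and at 0.445 without the 2 richest barcodes of each side. For ESM1 the medians were 10 UMIs in PIGR-high and 18 UMIs in PIGR-0 barcodes, with 596 and 1057 CPM. NEXN, an actin filament protein, stood at 0.591, and TUBA1C, an alpha tubulin, at 0.605. CKS2, a cyclin-dependent kinase subunit, stood at 0.637 and UBE2S, an enzyme of mitotic exit, at 0.623.

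Cell cycle genes were lower as a list. All 22 measured genes of a list for G2 and mitosis lay below 1-fold, none by 2-fold, with a median log2 fold of -0.54 beside 0.04 over all genes. Over all genes compared, 43.6% lay below 1-fold. Of the 22, 3 reached 10 CPM only in PIGR-0 barcodes, which fixed their direction. The 19 with 10 CPM on both sides had a median of -0.53. The summed level of the list was 654 CPM in PIGR-high and 920 CPM in PIGR-0 barcodes, a fold of 0.710 (0.693 to 0.727). Its per-barcode median was 145 CPM in PIGR-high and 414 CPM in PIGR-0 barcodes. MKI67, a proliferation marker, was found in 27.4% of PIGR-high and 40.3% of PIGR-0 barcodes, a fold of 0.683 (0.606 to 0.769). CCNB1, the mitotic cyclin, was at 25.4 and 44.5 CPM, a fold of 0.570. Of 16 S phase genes, 14 lay below 1-fold, with a median log2 fold of -0.33. In this list 2 genes reached 10 CPM only in PIGR-0 barcodes, and the median was -0.28 over the 14 with 10 CPM on both sides. PCNA, the sliding clamp of DNA replication, was at 38.7 and 57.5 CPM, a fold of 0.673. Since the cycle differed between the sides, the contrast was also run in barcodes below the median share of G2 and mitosis UMIs, a choice made after these values were seen. There MKI67, 1 of the genes used to choose these barcodes, was at 1.20 and FAM64A was at 0.998, over 444 pairs. Of the 40 genes higher by 2-fold, 23 stayed past 2-fold and 17 did not, with folds of 1.66 to 4.65, and of the 8 lower genes 6 stayed past 2-fold. UPK2 was then at 2.81, C3 at 2.91 and CCL28 at 3.59, while TGM2 was at 1.91, MAL at 1.67, S100A8 at 1.83, SLC26A2 at 1.73, EDIL3 at 1.73, PRR15L at 1.83 and LCN2 at 1.95.

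**Figure D4:**
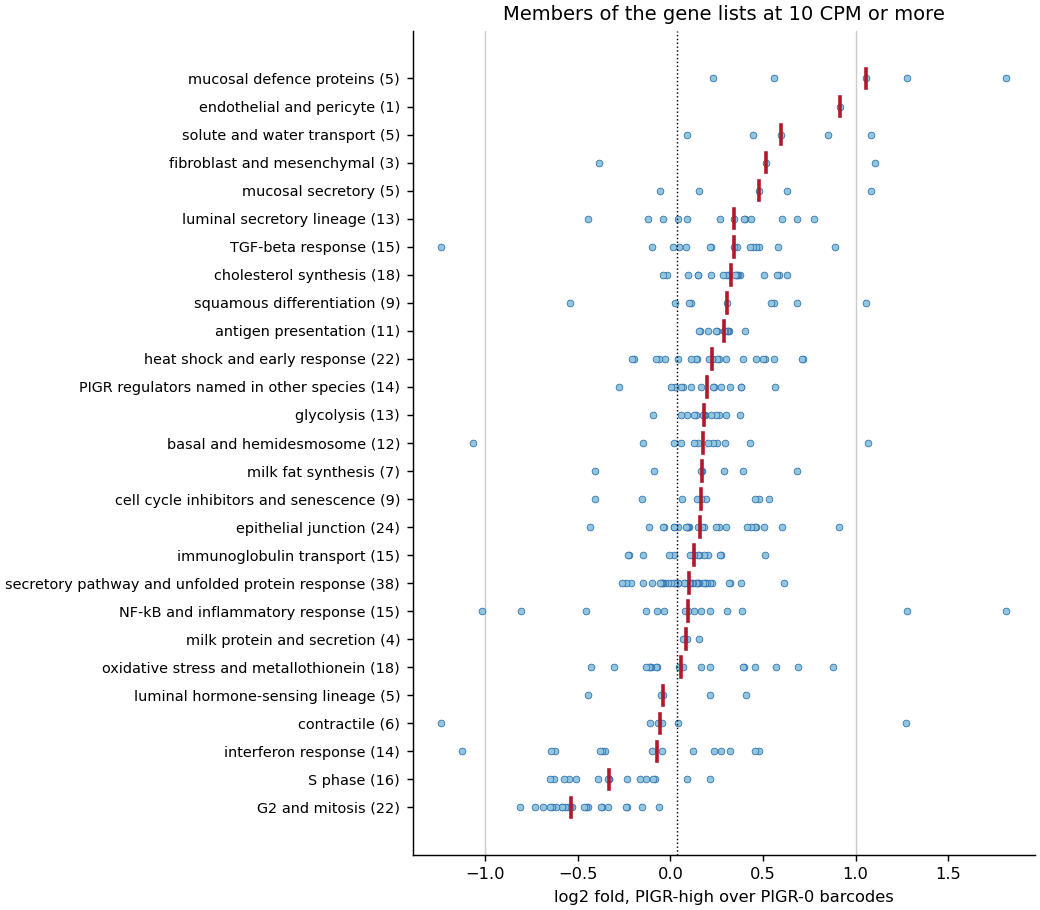
Log2 fold of each measured gene (points) and the median (red bar) for 27 gene lists, with the number of genes in brackets; the dotted line is the median of all 5948 genes and grey lines mark 2-fold. The median of mucosal defence proteins was 1.06, or 0.56 without the 2 genes that reached 10 CPM only in PIGR-high barcodes, and that of G2 and mitosis was -0.54.

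The machinery around PIGR itself differed little, as most genes did. Of 20 genes of immunoglobulin transport, 15 reached 10 CPM and none was 2-fold apart. Their median log2 fold was 0.13, beside 0.04 over all genes. Few genes of any kind were 2-fold apart, with 0.672% of all genes compared higher and 0.134% lower. MYO5B, the motor of apical recycling endosomes, was at 17.0 CPM in PIGR-high and 11.9 CPM in PIGR-0 barcodes, a fold of 1.43 (1.19 to 1.71), and RAB3D, a secretory vesicle GTPase, was at 1.21. None of 38 secretory pathway and unfolded protein response genes was 2-fold apart, with a median of 0.10 and CREB3L2, a secretory pathway factor, at 1.53. The 4 measured genes of milk protein and secretion had a median of 0.08. This list summed to 5106 CPM in PIGR-high and 4778 CPM in PIGR-0 barcodes, but its per-barcode medians were further apart, at 3338 and 2373 CPM. Among its genes SPP1, or osteopontin, was at 4715 and 4426 CPM. Its fold was 1.07 and ran from 0.928 to 1.49 over the other settings. The median barcode held 66.5 SPP1 UMIs in PIGR-high and 46 SPP1 UMIs in PIGR-0 barcodes.

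Among regulators of PIGR named in human or mouse, 13 of 14 measured genes lay above 1-fold, beside 56.4% of all genes, and none by 2-fold, with a median log2 fold of 0.20. IFNGR2, a chain of the interferon-gamma receptor, was at 48.6 CPM in PIGR-high and 32.9 CPM in PIGR-0 barcodes, a fold of 1.48 (1.33 to 1.65). NR3C1, the glucocorticoid receptor, was at 1.30, and IRF2, an interferon regulatory factor, at 1.25, or 0.925 at 10 or more PIGR UMIs. IRF2 reached 10 CPM only in PIGR-high barcodes, so the filter fixed the direction of its main fold. All 11 measured antigen presentation genes lay above 1-fold with a median of 0.29, led by TAPBPL at 1.32 and PSME1, a proteasome activator, at 1.24. The 14 interferon response genes did not move as 1 group, with a median of -0.07, 1 gene 2-fold lower and IFI35 at 1.39. Of 15 NF-kB and inflammatory genes, the 3 past 2-fold were C3 and LCN2, higher, and IL1A, lower, and each had reached 10 CPM only on the side where it was high. None of the 11 with 10 CPM on both sides was 2-fold apart, with a median of 0.08. The shares over all genes compared were 0.672% higher and 0.134% lower by 2-fold.

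Of 30 mucosal defence proteins, 11 are listed and 5 were compared, with C3, LCN2 and S100A8 higher by 2-fold. By comparison, 0.672% of all genes compared were higher by 2-fold and 0.134% lower. C3 and LCN2 reached 10 CPM only in PIGR-high barcodes, so their calls were fixed in direction by the filter. Of the 3 genes with 10 CPM on both sides, 1, S100A8, was higher by 2-fold. The median log2 fold was 1.06 over the 5 genes and 0.56 over these 3. WFDC2, a secreted protease inhibitor, was the most abundant of them, at 16905 and 14419 CPM, a fold of 1.17, and the summed level of the list was 1.19 times higher. WFDC2 was picked after its value was seen. Cholesterol synthesis had 16 of 18 genes above 1-fold, beside 56.4% of all genes, with a median of 0.33. HMGCS1, an early enzyme of the pathway, was at 173 and 112 CPM, a fold of 1.55. None of 24 epithelial junction genes was 2-fold apart, with CGN, the tight junction protein cingulin, at 1.88 and CLDN3, a claudin, at 1.52. CGN reached 10 CPM only in PIGR-high barcodes, so the filter fixed its direction. Squamous differentiation had a median of 0.31 over 9 genes, with IVL, the cornified envelope protein involucrin, at 1.60 and CRNN, of stratified epithelium, at 1.07, below 1 in 4 of 20 other settings. In the TGF-beta response list 13 of 15 genes were above 1-fold, beside 56.4% of all genes. CTGF was at 1.85, while TAGLN was 2-fold lower.

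**Figure D5:**
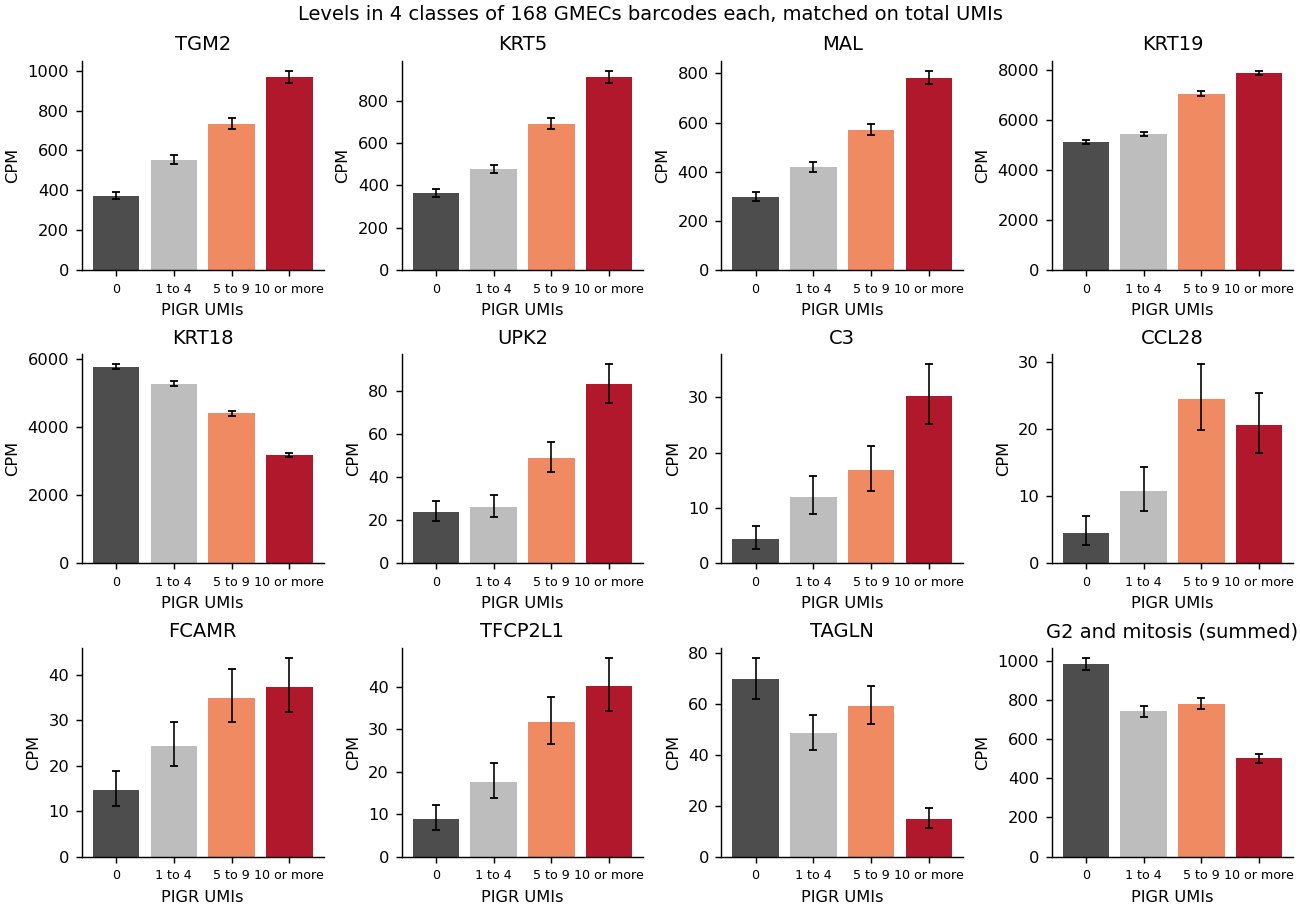
Level in CPM (bars, with 95% counting intervals) in barcodes with 0, 1 to 4, 5 to 9 and 10 or more PIGR UMIs, 168 in each class, matched on total UMIs. TGM2 climbed from 373 to 969 CPM and KRT18 fell from 5780 to 3188 CPM across the 4 classes.

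Genes with high folds were followed over finer classes of the PIGR count, as a description, since the classes and the choice of genes both rest on PIGR and fix the direction between the end classes. Barcodes of the lower 2 classes are not PIGR-high. In 4 classes of 168 barcodes each, matched on total UMIs, with 0, 1 to 4, 5 to 9 and 10 or more PIGR UMIs, PIGR itself stood at 0, 84.9, 262 and 534 CPM by choice. The classes 5 to 9 and 10 or more were set after the data were seen. TGM2 stood at 373, 553, 735 and 969 CPM, KRT5 at 363, 477, 693 and 912 CPM and MAL at 298, 420, 570 and 782 CPM, and no counting intervals of neighbouring classes overlapped for these 3. Over the same classes KRT19 had 5112, 5426, 7042 and 7855 CPM. KRT18 ran the other way, with 5780, 5284, 4412 and 3188 CPM. These differences were already present between the classes with 0 and with 1 to 4 PIGR UMIs, below the cut of 5.

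Other genes did not all climb at every step. UPK2 stood at 24.0, 26.4, 49.2 and 83.2 CPM, with the first 2 classes within counting error. CCL28 stood at 4.56, 10.8, 24.5 and 20.6 CPM, and C3 at 4.32, 11.99, 16.8 and 30.2 CPM. FCAMR stood at 14.6, 24.5, 35.0 and 37.4 CPM, of which the last 2 classes overlap. TAGLN stood at 69.5, 48.5, 59.3 and 14.9 CPM, lowest in the top class. The G2 and mitosis genes summed to 983, 740, 780 and 501 CPM. With 14 barcodes in each of the classes 0, 1 to 4, 5 to 19 and 20 or more, TGM2 stood at 252, 391, 762 and 997 CPM and KRT5 at 405, 394, 572 and 957 CPM.

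The genes higher in PIGR-high barcodes did not all have their highest level in GMECs. FGFBP1 was at 153 CPM over all GMECs barcodes and 0.154 CPM in CiMECs, and at 3.30 CPM in BFRTV4d and 37.6 CPM in BFRTV8d. TGM2 was at 538 CPM in GMECs and 73.7 CPM in CiMECs, and at 0.851, 4.17 and 7.99 CPM in BFRTV0d, BFRTV4d and BFRTV8d. CCL28, in contrast, was at 9.60 CPM in GMECs and 21.2 CPM in CiMECs, and reached 29.1 CPM in BFRTV8d. C3 was at 10.9 CPM in GMECs and 82.5 CPM in BFRTV8d, and KRT5 at 485 and 2709 CPM. Ribosomal protein genes are listed for GMECs and CiMECs but not in the BFRTV tables, so that between these sets the group and the way the table was made cannot be told apart.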

How the data were processed

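Goat cells of 5 groups (11 samples) were measured by 10x single-cell RNA sequencing. The authors deposited 1 table per group of raw UMI counts per gene and barcode, not normalized; FastQC 0.10.1 and Cell Ranger are named in the processing notes of the submitters, and the genome build is not given in the sources used here. GMECs had 111001606 UMIs in 5641 barcodes, with a median of 19424 UMIs per barcode. No column belonged to a sample outside the series (0). Between 37 and 147 barcodes were shared by pairs of tables (0.713% to 1.73% of the smaller). Of 14238 gene rows in GMECs, 13908 matched the RefSeq table of assembly ARS1.2, used for names and gene order only.

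PIGR-high and PIGR-0 barcodes were paired 1 to 1, without replacement, on total UMIs within 5%. UMIs were summed per side and scaled to CPM over all genes. A fold has an exact conditional binomial 95% interval. Genes with 10 CPM or more on either side were compared. Thinning drew 3000 UMIs per barcode without replacement. No doublet caller was run, but a contrast without barcodes over 2 times the median total was. Named genes were the 15 highest and 15 lowest folds at 50 CPM or more among symbols other than LOC, up to 4 members per list and fixed markers; any other gene is marked as picked later or is 1 of the 47 drawn in the fold plot. A few genes are not reported here. The members and the 29 lists were chosen with earlier results of these data known. The procedure was tested on simulated data. Python 3.11.15, numpy 2.4.6, scipy 1.17.1 and, for TMM factors, edgeR 4.0.16 in R 4.3.3 were used.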

Additional observations from a re-analysis of the deposited data

Results flagged for a closer look

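PIGR was also found in data outside the comparison. The 451 GMECs barcodes under 500 genes held 16 PIGR UMIs, above the 3 that a count of 0 allows. The BFRTV8d table held 102 PIGR UMIs in 66 barcodes, of which 2 had 5 or more and the highest had 10.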

How the results depend on the processing

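Of the 48 genes at least 2-fold apart, 44 kept their direction in 20 alternatives and 7 stayed past 2-fold in each (folds were taken whatever the minimum level, so 2 alternatives, on that level, could move none), namely C3, CCL28, TFCP2L1, ERV3-1, LOC102179515, LOC102169149 and LOC102184041. Of these, C3, CCL28, ERV3-1 and LOC102179515 were under 10 CPM in PIGR-0 barcodes, so the filter fixed their direction. The alternatives share barcodes of 1 library and are not independent of each other. Against 40 genes higher and 8 lower, there were 620 and 610 with no minimum level, 14 and 3 with a minimum of 50 CPM, 15 and 3 at 3 or more PIGR UMIs, and 177 and 66 at 10 or more PIGR UMIs with 169 pairs. Without matching 4 genes were lower. In alternatives chosen after the data were seen, the 232 shallowest pairs by total UMIs gave 142 and 85, the 231 middle pairs gave 28 lower, and a 1.5-fold size gave 196 and 94. With fewer barcodes or lower levels the counts behind each fold are smaller; the cause was not tested further. The share of PIGR-high barcodes was 14.5% with at least 1000 genes, and PIGR in GMECs was at 145 CPM without ribosomal protein genes, against 94.6 CPM with them. TMM factors, median-of-ratios factors and leaving out ribosomal genes shifted the overall median log2 fold by -0.06, -0.05 and 0.00.

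Some single genes changed direction. KRT14 was at 1.37 with 10 or more PIGR UMIs and at 1.57 with 2 or more PIGR UMIs after thinning. ISG15 was at 1.51 after thinning and at 1.27 in the shallowest pairs, and LOC102177275 at 0.590 after thinning. LOC102173761 was at 1.06 with 10 or more PIGR UMIs, 2.37 after thinning, 2.00 in the shallowest and 1.27 in the middle pairs, and 1.07 without the 2 richest barcodes of each side. The median of mucosal defence proteins was 0.56 with a minimum of 50 CPM, under the 0.62 of mucosal secretory genes there. The G2 and mitosis median was 0.08 and that of S phase 0.17 in barcodes low in G2 and mitosis UMIs, a selection made on the G2 and mitosis genes themselves. The contrast planned for other tables was not run, because BFRTV8d has 2 barcodes with 5 or more PIGR UMIs and the rest do not list PIGR. No paired analysis was possible because each group is 1 table whose barcodes carry no sample. Levels of 1 or a few UMIs per barcode, as for CCL28 and LCN2, limit what single barcodes can show.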
